A study of Mus musculus with 12 samples.

Results

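Integrins are the receptors through which cells hold on to the extracellular matrix, and fibronectin is one of the matrix proteins they hold. The 10 genes described here were chosen by name, with earlier results of these data known. The set holds Fn1, which encodes fibronectin, the alpha chains Itga1, Itga2, Itga3, Itga5 and Itgav, and the beta chains Itgb1, Itgb3, Itgb5 and Itgb6. They are 10 of the 55573 genes counted, and all 10 passed the filter on low counts, which left 14226 genes to be tested. Itgb6 did so through its ERI-R libraries alone. Each gene symbol matched 1 row of the counts. An integrin is a pair of an alpha and a beta chain, and the pair sets which matrix protein is bound. The chain of Itgb1 pairs with those of Itga1 and Itga2 to bind collagen, with that of Itga3 to bind laminin and with that of Itga5 to bind fibronectin. The alpha V chain pairs with several beta chains to bind the arginine-glycine-aspartate sequence of fibronectin, vitronectin and the latency peptide of TGF-beta, and its pair with beta 6 is an epithelial receptor that activates latent TGF-beta.

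RNA came from PB3, a mouse breast cancer cell line whose labels describe it as negative for the estrogen receptor, the progesterone receptor and HER2. Control was the untreated parental line, PB3-Parental. The derivatives PB3-ERI-R, PB3-PAC-R and PB3-VIN-R, labelled with the treatments erubilin (the drug eribulin), paclitaxel and vinorelbine, are resistant clones, made with 300, 500 and 800 nM of each drug, and all 3 drugs act on microtubules. Each group had 3 libraries, and each derivative is 1 line, so a difference between lines cannot be told apart from a difference between the clones that were picked. Nothing in the labels says that replicates were separate cultures. P-values here then reflect the spread of these libraries, which may be technical.

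Totals were between 11141028 and 13454395 expected counts per library. At these totals 3 counts, taken as the limit of detection, correspond to between 0.223 and 0.269 CPM (the gene's counts scaled to a common library total). This range uses the totals alone. The CPM of genes given below also carry a scaling factor for each library, with which 3 counts in VIN-R 2 were 0.274 CPM. Lyz2, a lysozyme of macrophages, was at 0 CPM in 1 library of each group (Control 1, ERI-R 3, PAC-R 3, VIN-R 3) and between 182 and 1401 CPM in the remaining 8. The 16 macrophage and leukocyte markers had a summed level of 24.6 to 167 CPM where Lyz2 was absent and of 772 to 5388 CPM where it was present. The sum of 167 CPM was that of ERI-R 3, where Cd14 alone had 163 CPM. ERI-R 3 stood apart in a further measure, since 89 genes of ribosomal proteins took 16.7% of its counts and 3.84% to 9.01% elsewhere. The epithelial keratins Krt8 and Krt18 were present in all groups, with means between 396 and 1352 CPM. Of the receptors named in the labels, Esr1 had group means between 9.41 and 12.9 CPM and Erbb2 31.1 CPM in Control. Pgr, the progesterone receptor gene, had 208 counts over the ERI-R libraries and 3 over Control, a CPM ratio of 72.2 (95% counting interval 24.4 to 353).

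RefSeq promoter entries were found for 8 of the 10 genes, all but Fn1 and Itgb3. The 4 sequences below belong to 3 genes that were lower and 1 that was higher in ERI-R, and are shown because these genes carry the largest differences described below together with the common beta chain. They are RefSeq sequence of GRCm38.p6, on the gene's own strand, 5′ to 3′, ending at or shortly before the transcription start. Itga2 lies at chr13:114932101-114932350 (minus strand), Itga3 at chr11:95076802-95076964 (minus), Itgb1 at chr8:128685404-128685653 (plus) and Itgb6 at chr2:60722644-60722853 (minus). Capitals mark the sequences CAGGTG, the E-box bound by ZEB and SNAI repressors, and GGGCGG, the GC box bound by SP1, on either strand.
Itga2: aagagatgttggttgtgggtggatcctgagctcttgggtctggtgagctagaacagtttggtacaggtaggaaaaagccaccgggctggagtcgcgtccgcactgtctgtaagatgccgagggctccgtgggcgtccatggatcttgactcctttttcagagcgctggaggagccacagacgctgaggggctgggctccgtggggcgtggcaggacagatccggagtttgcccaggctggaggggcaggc
Itga3: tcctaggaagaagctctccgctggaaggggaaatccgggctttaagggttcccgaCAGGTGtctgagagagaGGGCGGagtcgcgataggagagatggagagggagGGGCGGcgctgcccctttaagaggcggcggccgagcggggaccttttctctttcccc
Itgb1: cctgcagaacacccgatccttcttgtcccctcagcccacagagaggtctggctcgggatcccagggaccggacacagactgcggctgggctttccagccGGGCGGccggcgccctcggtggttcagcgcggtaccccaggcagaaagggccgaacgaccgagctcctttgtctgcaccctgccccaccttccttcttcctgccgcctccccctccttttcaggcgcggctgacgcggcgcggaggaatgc
Itgb6: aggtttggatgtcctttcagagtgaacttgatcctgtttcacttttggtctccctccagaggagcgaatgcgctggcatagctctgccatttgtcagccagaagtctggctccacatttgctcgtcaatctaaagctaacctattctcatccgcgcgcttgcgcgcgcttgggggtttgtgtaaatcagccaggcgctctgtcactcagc
Motifs were searched on both strands of the 250 bases before each start. The E-box CAGGTG was found once in Itga3 and once in Itgb5, and in 17.1% of 27025 mouse promoters. The GC box GGGCGG was found 3 times in Itga3, 3 times in Itgb5, 2 times in Itga5 and 1 time in Itgb1, and in 33.0% of all promoters. One of the 3 in Itga3 lies 35 bases before the start, in bases not printed. The other 5 motifs searched had no match in any of the 8. They were the AP-1 site TGANTCA, held by 6.85% of all promoters, and the TATA box, spelled TATAAA, held by 13%. The SMAD box GTCTAGAC is held by 0.174%, the cyclic AMP response element TGACGTCA by 1.6% and the CCAAT box by 34.5%. Itga1, Itga2, Itgav and Itgb6 held none of the 7 motifs. A match describes the letters of this window and is not a measurement of binding.

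Levels between genes are compared as TPM (transcript abundance, which divides by transcript length), as the authors deposited them. In Control, Fn1 was the most abundant of the 10 at 2069 ± 301 TPM (SD, n = 3). Itgb1, the common beta chain, followed at 821 ± 103 TPM and Itga3 at 434 ± 131 TPM. Itgb5, Itgav and Itga5 lay at 135 ± 28.1, 95.2 ± 21.3 and 64.2 ± 22.3 TPM. Itga2 and Itgb3 were low, at 3.71 ± 0.324 and 3.13 ± 1.17 TPM. Itga1 and Itgb6 were close to absent, at 0.260 ± 0.0265 and 0.0933 ± 0.0351 TPM. Neighbours in this order did not overlap between libraries, except Itgav with Itga5 and Itga2 with Itgb3. In ERI-R the order began with Fn1 (365 ± 140.2 TPM) and Itgb1 (236 ± 164 TPM), whose libraries overlapped, and Itgb5, Itgav and Itga3 followed at 49.0 ± 11.2, 45.2 ± 16.2 and 41.4 ± 16.8 TPM, also overlapping.

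TPM depends on the effective length, the bases in which a fragment can start, averaged by RSEM over the transcripts it assigned. The effective length of Itgav was 527 bases in ERI-R 3 and between 4429 and 6613 in the other 11 libraries. That of Fn1 was 2467 bases in ERI-R 3 against 4398 to 6260.0 elsewhere. The TPM of both genes in ERI-R 3 was thus computed with a shorter length than in the other libraries. Differences between lines are given below in CPM, which uses no length.

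The question of the first comparison was which matrix receptor genes differ in cells selected with eribulin. In ERI-R, Fn1, the common beta chain Itgb1 and the alpha chains Itga2, Itga3 and Itga5 were lower than in the parental line, while Itgb3 and the epithelial chain Itgb6 were higher. Of the 10 genes, 2 were called higher and 5 lower in ERI-R (quasi-likelihood test of edgeR, called where the p adjusted over all tested genes by Benjamini-Hochberg was under 0.05). Over all genes 19.2% were called, 9.51% higher and 9.69% lower. The median log2 fold change of the 10 was -1.55, and that of all genes -0.0044. For each of the 10 genes the ERI-R and Control libraries were fully separated, as they were for 35.7% of all genes. The 10 were chosen with earlier results of these data known, so these values beside all genes are not a test of the set. Without Control 2 the number called was 4, and without Control 3 also 4, in fits that called 13.6% and 12.6% of all genes. The changes are of RNA in a culture, where fewer cells of a type and less RNA per cell cannot be told apart.

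**Figure D1:**
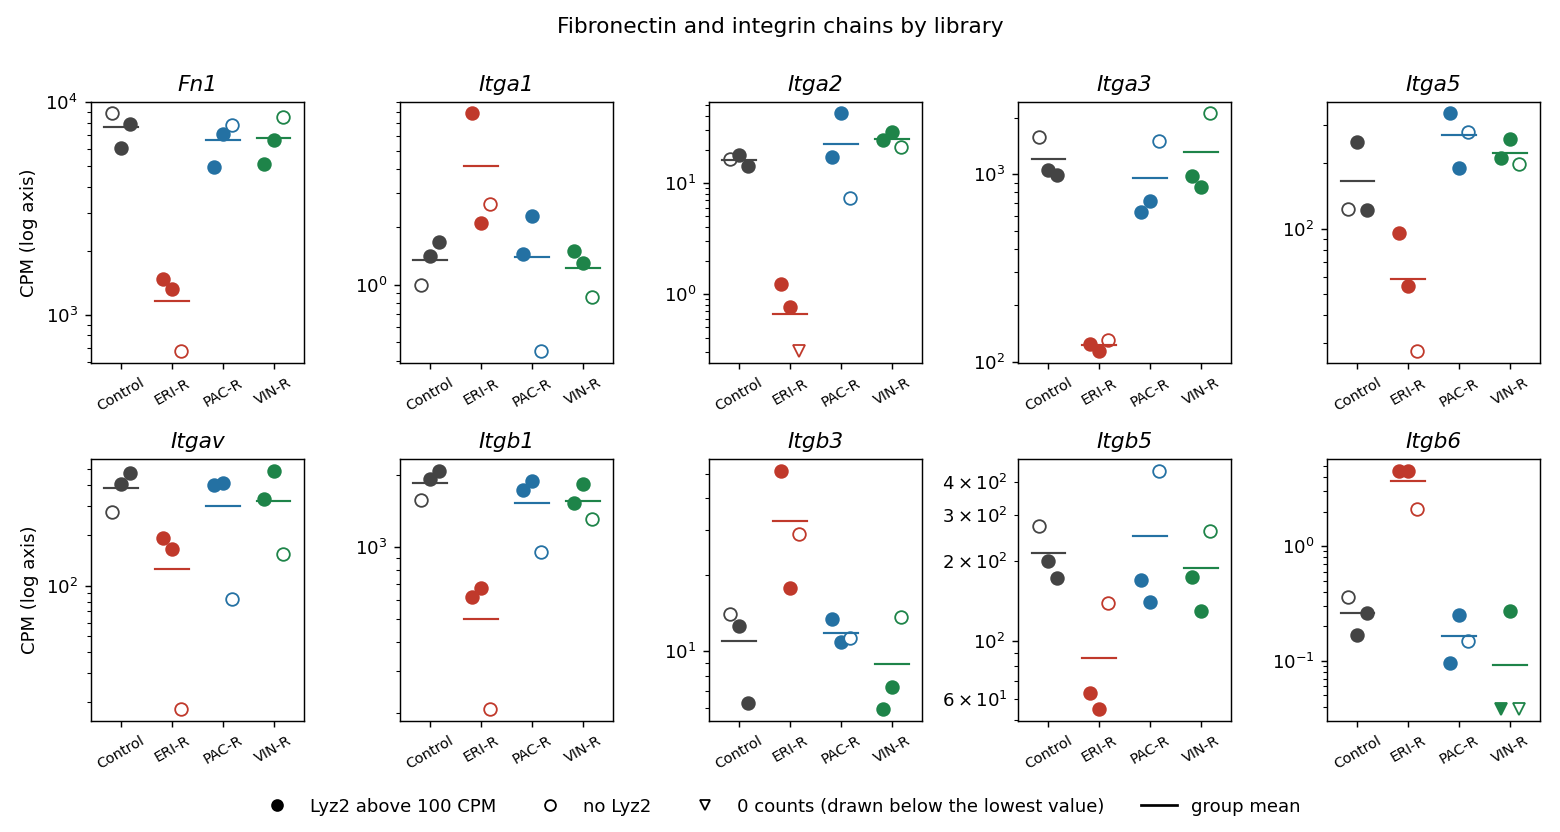
Level of each of the 10 genes in each library, in CPM on a log axis, by group (Control, ERI-R, PAC-R, VIN-R). Filled circles are libraries with Lyz2 above 100 CPM, open circles libraries without Lyz2, triangles libraries with 0 counts and lines group means. The ERI-R libraries lie below all Control libraries for Fn1, Itga2, Itga3, Itga5, Itgav, Itgb1 and Itgb5 and above them for Itga1, Itgb3 and Itgb6.

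Fibronectin, the ligand among the 10, is a large glycoprotein that cells assemble into fibrils and a widely used marker of mesenchymal cells. Fn1 (ENSMUSG00000026193, chromosome 1, 71585520 to 71653200, GRCm38) stood at 8860.1, 6089.9 and 7935 CPM in Control 1 to 3 and at 1478, 1321 and 673 CPM in ERI-R 1 to 3. PAC-R had 4986, 7076 and 7779 CPM and VIN-R 5104, 6662 and 8517 CPM. All 3 ERI-R libraries were below the other 9, with the lowest value in ERI-R 3. The fitted log2 fold change against Control was -2.72 (SE 0.38, adjusted p = 0.00104), a 6.59-fold lower level. The call held in each of 12 fits that left out 1 library, with values from -2.92 to -2.30, the latter without ERI-R 3. Against PAC-R and VIN-R the log2 fold changes were -2.51 (adjusted p = 0.00141) and -2.55 (adjusted p = 0.00113).

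Itga2 encodes the alpha chain of the collagen receptor alpha 2 beta 1. It stood at 16.3, 17.9 and 14.3 CPM in Control, at 17.3, 42.3 and 7.25 CPM in PAC-R and at 24.2, 29.0 and 21.2 CPM in VIN-R. ERI-R 1 and ERI-R 2 had 1.22 and 0.763 CPM, 16 and 10 counts, and ERI-R 3 had 0 counts, which allows a level of up to 3 counts. By the total of that library alone this limit is 0.269 CPM, and it is higher with the library's scaling factor. All ERI-R libraries were below every other library. Against Control the fitted difference on the log2 scale was -4.55 (SE 0.91, adjusted p = 0.00567), the largest fall of the 10 in this fit. Leaving out ERI-R 3 gave -3.88 and leaving out ERI-R 1 gave -5.26, and each of the 12 fits with 1 library left out kept the call. Against PAC-R it was -5.01 (adjusted p = 0.00400), which became -4.33 without ERI-R 3, -5.73 without ERI-R 1 and -4.16 without PAC-R 2, the library at 42.3 CPM. Against VIN-R it was -5.17 (adjusted p = 0.00303), -4.50 without ERI-R 3 and -5.89 without ERI-R 1.

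Itga1, the alpha chain of the other collagen receptor of the set, was scarce and differed in the opposite direction without being called. It had 0.990, 1.41 and 1.66 CPM in Control and 7.85, 2.10 and 2.63 CPM in ERI-R. ERI-R 1 was the highest of the 12 libraries. The log2 fold change was 1.62 (SE 0.65, adjusted p = 0.117), and 0.82 without ERI-R 1. PAC-R had 0.448 to 2.28 CPM, which overlapped ERI-R, and VIN-R 0.859 to 1.51 CPM, which did not.

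Itga3 encodes the alpha chain of the laminin receptor alpha 3 beta 1 (chromosome 11, 95044474 to 95076801, GRCm38). Control had 1577, 1053 and 992 CPM and ERI-R 125, 114 and 131 CPM. PAC-R had 630.1, 719 and 1501 CPM and VIN-R 974, 856 and 2109 CPM. The ERI-R libraries lay close together and below the other 9. Against Control its log2 fold change was -3.29 (SE 0.47, adjusted p = 0.00116), a 9.79-fold lower level, with a range of -3.43 to -2.97 when 1 library was left out. In each of the 4 groups the library without Lyz2 was the highest of the 3.

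Itga5 encodes the alpha chain of the main fibronectin receptor, alpha 5 beta 1. It stood at 124, 249 and 122 CPM in Control, 95.4, 54.3 and 27.4 CPM in ERI-R, 338, 191 and 279 CPM in PAC-R and 211, 258 and 198 CPM in VIN-R. The highest ERI-R library was 95.4 CPM and the lowest of the other 9 was 122 CPM. Against Control the log2 fold change was -1.48 (SE 0.46, adjusted p = 0.0465). This call held in 1 of the 12 fits that left out 1 library, that without ERI-R 1. Values were -1.004 without ERI-R 3, -1.07 without Control 2, -1.38 without ERI-R 2, -1.54 without Control 1 and -1.67 without Control 3. Leaving out a library of PAC-R or VIN-R gave between -1.497 and -1.496. Against PAC-R (-2.19, SE 0.47, adjusted p = 0.00835) the call held in all 12 such fits, and against VIN-R (-1.91, SE 0.47, adjusted p = 0.0148) in 11, all but that without ERI-R 2.

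Itgav, the alpha chain of the vitronectin receptors, was not called. Control had 276, 408 and 474 CPM, ERI-R 192, 167 and 18.2 CPM, PAC-R 401, 416 and 82.7 CPM and VIN-R 329, 487 and 155 CPM. The library without Lyz2 was the lowest of each group. The log2 fold change against Control was -1.62 (SE 0.82, adjusted p = 0.209), and -0.96 without ERI-R 3. With the presence of Lyz2 as a term of the fit it was -2.12 (adjusted p = 0.00659), and in the 8 libraries with Lyz2 it was -1.20 (adjusted p = 0.0125).

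Itgb1, the beta chain shared by the collagen, laminin and fibronectin receptors above, fell, as did its alpha partners Itga2, Itga3 and Itga5 but not Itga1 (chromosome 8, 128685654 to 128733200, GRCm38). Control had 1579, 1919.8 and 2080.3 CPM, ERI-R 615, 673 and 209 CPM, PAC-R 1728, 1894 and 947 CPM and VIN-R 1522, 1845 and 1315 CPM. All ERI-R libraries were below the other 9, and the library without Lyz2 was again the lowest of each group. Its log2 fold change against Control was -1.90 (SE 0.44, adjusted p = 0.0119), a 3.73-fold lower level, and it was -1.39 without ERI-R 3. That call held in all 12 fits that left out 1 library. Against PAC-R it was -1.61 (adjusted p = 0.0260) and against VIN-R -1.64 (adjusted p = 0.0231), and each of these calls held in 9 of the 12. The PAC-R call was lost without Control 1 (-1.51), PAC-R 1 (-1.52) or PAC-R 2 (-1.43), and the VIN-R call without Control 1 (-1.54), VIN-R 1 (-1.67) or VIN-R 2 (-1.52).

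Itgb3, the beta chain of the vitronectin receptor alpha V beta 3 and, with Itga2b, of the platelet fibrinogen receptor, was higher in ERI-R. Control had 14.0, 12.6 and 6.29 CPM and ERI-R 51.1, 17.7 and 28.8 CPM. PAC-R had 13.4, 10.9 and 11.3 CPM and VIN-R 5.94, 7.22 and 13.7 CPM. The lowest ERI-R library was above all others. The log2 fold change against Control was 1.57 (SE 0.47, adjusted p = 0.0397), a call that held in 4 of the 12 fits that left out 1 library. The 8 libraries whose removal ended it were Control 1 (1.88), Control 2 (1.66), Control 3 (1.28), ERI-R 1 (1.10), each of PAC-R (1.55) and VIN-R 2 (1.55). The comparison with PAC-R was not called (1.46, adjusted p = 0.0548), and that with VIN-R was (1.86, adjusted p = 0.0184), although not without ERI-R 1 (1.38), VIN-R 1 (1.62) or VIN-R 2 (1.72). The platelet markers Pf4, Gp9, Gp1ba, Ppbp, Gp6 and Itga2b summed to between 1.52 and 5.16 CPM in the 4 libraries without Lyz2 and between 7.53 and 77.1 CPM in the 8 with it. Most of the sum in these 8 was Pf4, at 5.27 to 72.8 CPM. Itga2b was no higher in the 8 (1.22 to 2.88 CPM) than in the 4 (1.52 to 4.63 CPM). Gp9, Gp1ba and Gp6 stayed at or under 0.48 CPM in every library, and Ppbp at or under 1.83 CPM.

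Itgb5, a further partner of alpha V, had 271, 199.9 and 173 CPM in Control, 63.1, 55.0 and 139 CPM in ERI-R, 169, 140.3 and 440.2 CPM in PAC-R and 174, 129 and 261 CPM in VIN-R. The library without Lyz2 was the highest of each group. The log2 fold change against Control was -1.32 (SE 0.52, adjusted p = 0.106), so it was not called. Among the fits that left out a library or took Lyz2 into account, it was called without ERI-R 3 (-1.72), without PAC-R 3 (-1.34), with Lyz2 as a term (-1.44, adjusted p = 0.00164) and in the 8 libraries with Lyz2 (-1.56, adjusted p = 0.00359).

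Itgb6, the beta chain of the epithelial receptor alpha V beta 6, had the largest rise of the 10 (chromosome 2, 60598292 to 60722643, GRCm38). ERI-R had 4.50, 4.50 and 2.10 CPM, from 59, 59 and 20 counts. Control had 0.361, 0.168 and 0.262 CPM, from 5, 2 and 3 counts, and PAC-R 0.0959, 0.253 and 0.149 CPM. VIN-R 2 had 0.274 CPM from 3 counts, and VIN-R 1 and VIN-R 3 had 0 counts. All Control, PAC-R and VIN-R libraries were thus near or under the level of 3 counts, and all ERI-R libraries were above it. Itgb6 was tested only because of its ERI-R counts, so a rise in ERI-R was the only call open to it. Its log2 fold change against Control was 3.75 (SE 0.86, adjusted p = 0.0109). The call was lost without Control 2 (3.51) or Control 3 (3.73) and held in the other 10 fits that left out 1 library. Against PAC-R it was 4.39 (adjusted p = 0.00671). Against VIN-R, with 3 counts over the group, the CPM ratio was 46.9 (95% counting interval 15.7 to 230.2), and the fitted log2 value of 5.28 became 8.49 without VIN-R 2 and 4.68 without VIN-R 3.

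**Figure D2:**
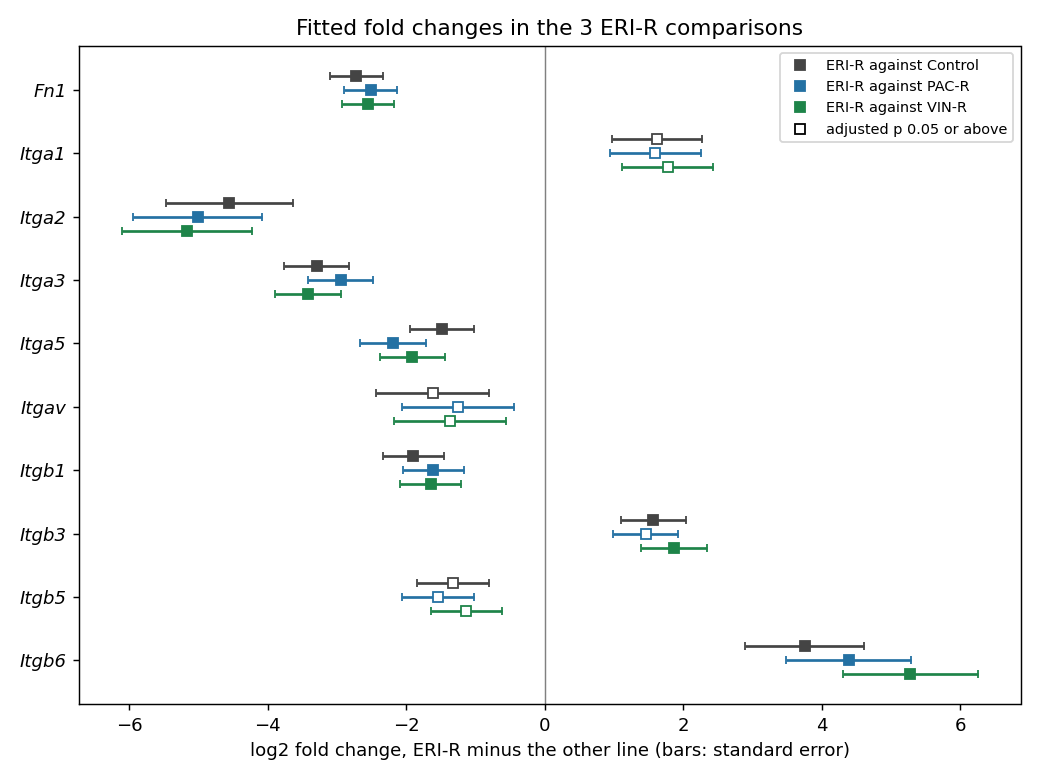
Fitted log2 fold change of each gene in ERI-R against Control, PAC-R and VIN-R, with its standard error as a bar; filled squares have an adjusted p under 0.05. The 3 comparisons share the ERI-R libraries, and Fn1, Itga2, Itga3, Itga5 and Itgb1 are lower and Itgb6 higher with a call in each.

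The same 10 genes were compared between ERI-R and the other derivatives, which asks whether the difference is also found between resistant lines. Against PAC-R, 1 was higher and 5 lower, where 18.7% of all genes were called (9.19% higher, 9.55% lower). Against VIN-R, 2 were higher and 5 lower, where 19.3% were called (9.55% higher, 9.74% lower). Libraries did not overlap for 8 of the 10 genes in each, where 29.3% and 30.4% of all genes did not. These comparisons share the ERI-R libraries with the first, so their values are given side by side and not as independent support.

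PAC-R and VIN-R against Control, and against each other, gave no call among the 10 genes or among all genes (0% called in each, edgeR quasi-likelihood test). No member had an unadjusted p under 0.05, where 245, 381 and 156 of 14226 genes did. DESeq2 called 24 genes in PAC-R against Control, 36 in VIN-R against Control and 5 between PAC-R and VIN-R, none of them a member. The log2 fold changes of the 10 lay between -0.64 (Itgb6) and 0.71 (Itga5) in PAC-R against Control, between -1.53 (Itgb6) and 0.61 (Itga2) in VIN-R against Control and between -0.47 (Itga3) and 0.89 (Itgb6) in PAC-R against VIN-R. Standard errors lay between 0.36 and 1.05. Libraries did not overlap for 1 gene, Itga2 in VIN-R against Control, and for 7.58%, 8.52% and 3.2% of all genes.

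The presence of macrophage transcripts moved with several of the 10 genes, so each comparison was also made with it as a term and in the 8 libraries with Lyz2. With the term, all 10 genes were called in ERI-R against Control, PAC-R and VIN-R, 7 of them lower, where 31.2%, 29.4% and 29.7% of all genes were. In the 8 libraries with Lyz2, 8, 8 and 9 of the 10 were called, where 22.7%, 22.8% and 24.0% of all genes were. Itga1 was not called in these 8 in any of the 3 (1.78 against Control, adjusted p = 0.0894), and Itga5 was not against Control (-1.20, adjusted p = 0.0797). Itgb3 was not called against PAC-R (1.61, adjusted p = 0.0571, all edgeR quasi-likelihood tests). Without ERI-R 3, 7, 8 and 7 were called, where 19.3%, 20.0% and 19.9% of all genes were. Leaving out ERI-R 3 moved the median of all genes by 0.20 on the log2 scale against Control, so the fitted values without it are to be read against that shift. The 8 leukocyte integrin chains, which macrophages carry, summed to between 1.37 and 22.1 CPM in the 4 libraries without Lyz2 and between 135 and 749.7 CPM in the 8 with it. Each group held 2 libraries with Lyz2 and 1 without, and the falls of Fn1, Itga2, Itga3 and Itgb1 were called in the 8 libraries as well as in all 12.

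**Figure D3:**
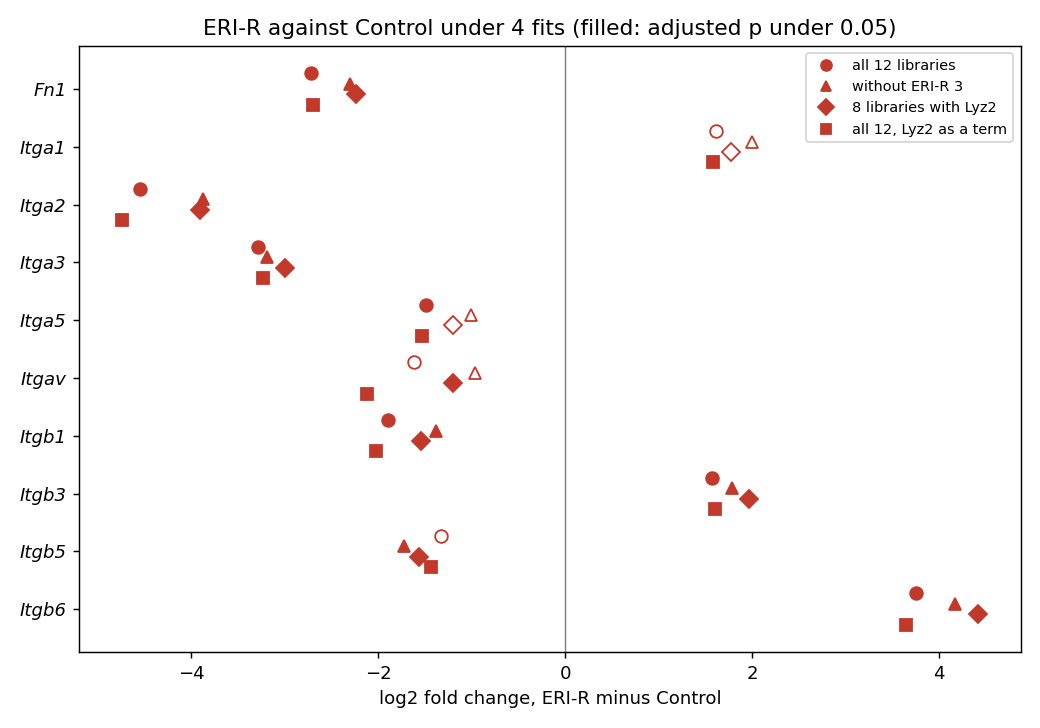
Log2 fold change of each gene in ERI-R against Control in 4 fits: all 12 libraries, without ERI-R 3, the 8 libraries with Lyz2, and all 12 with Lyz2 as a term. Filled symbols have an adjusted p under 0.05; the sign is the same in all 4 fits for each gene, and Itga1, Itga5, Itgav and Itgb5 are filled in some fits and open in others.

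The makeup of the beta chains was set out as shares of the summed TPM of all 8 of them. Itgb1 took 74.7%, 75.5% and 80.9% in Control 1 to 3 and 55.0%, 60.9% and 22.3% in ERI-R 1 to 3. Itgb4, the partner of Itga6 in the laminin receptor of hemidesmosomes and not one of the 10, took 6.73%, 4.32% and 4.80% in Control and 19.4%, 21.4% and 48.9% in ERI-R. The Itgb1 share was lower and the Itgb4 share higher in all 3 ERI-R libraries than in Control, and ERI-R 3 was at the end of the range for both. Itgb3 took at most 0.464% in Control, PAC-R and VIN-R and 1.03% to 2.91% in ERI-R. Itgb6 took at most 0.0302% in the other groups and 0.185% to 0.481% in ERI-R. The sum itself was 980.5 to 1156 TPM in Control and 206 to 616 TPM in ERI-R, so that a higher share is not a higher level. Among 18 alpha chains, Itga3 took 35.4% to 51.8% in Control and 8.05% to 24.2% in ERI-R, and Itga6 34.9% to 41.5% and 33.7% to 65.1%. The values of 24.2% and 33.7% are those of ERI-R 3, where Itgav took 28.4% with its short effective length of 527 bases. The alpha chain shares of that library depend on this length. Shares are given without a test.

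**Figure D4:**
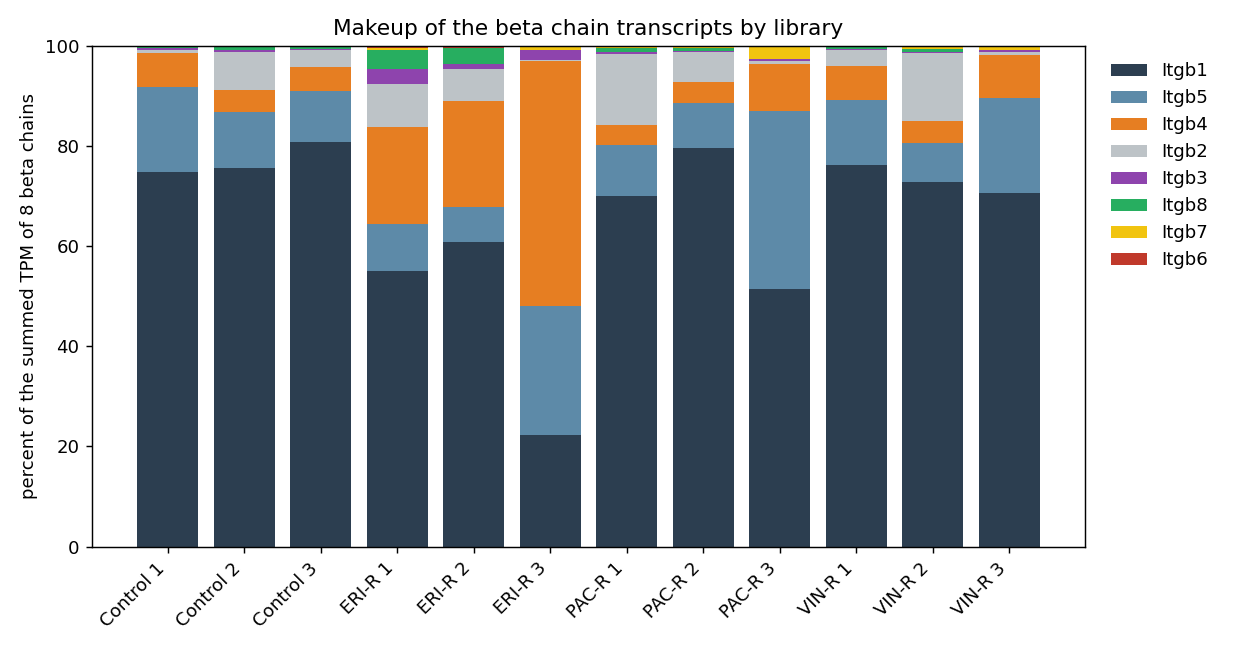
Percent of the summed TPM of 8 beta chains taken by each, in each of the 12 libraries, as stacked bars. Itgb1 takes 22.3% to 60.9% in the ERI-R libraries and 51.5% or more in the other 9, and Itgb4 takes 19.4% or more in ERI-R and at most 9.35% elsewhere.

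The other genes of the pathway were taken from lists by role, ERI-R against Control, and each count is read against 9.51% of all genes called higher and 9.69% lower. The lists too were chosen with earlier results known, so these counts are a description and not a test. Of 8 other integrin chains tested, 1 was higher and 1 lower (median log2 fold change 0.24). The ERI-R mean of Itgb4 was 439.9 ± 199 CPM (SD, n = 3) and its Control mean 175 ± 31.0 CPM (SD, n = 3). Its log2 fold change was 1.33 (adjusted p = 0.0328). Removal of Control 1 (1.54), Control 2 (1.23), Control 3 (1.25), ERI-R 3 (1.04) or VIN-R 1 (1.31) ended this call, which left 1 of the 8 chains called without any of the Control libraries or VIN-R 1. The lower chain was Itga7, a laminin receptor chain of muscle, at -2.97, named after its value was seen. Itga6 was not called (-0.82, adjusted p = 0.385). None of 6 leukocyte chains was called, with standard errors from 0.62 (Itgb7) to 2.50 (Itgam).

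Among 22 other matrix ligands, 1 was higher and 9 lower, with a median of -1.33. Nid1, the basement membrane linker nidogen, had a mean of 17.8 ± 8.83 CPM in Control and of 0.203 ± 0.176 CPM in ERI-R (SD over 3 libraries). Its fitted value was -6.31, or -5.68 with ERI-R 3 left out. Fbn1, the microfibril protein fibrillin, had -4.86, and -4.14 without ERI-R 3 or -5.94 without ERI-R 1. Lama4, a laminin alpha chain, was the higher one, at 87.9 ± 35.2 against 4.12 ± 0.869 CPM (SD over 3 libraries) and a log2 value of 4.41.

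Of 9 ligands and carriers of latent TGF-beta, 1 was higher and 2 lower (median -0.36). Tgfb2 rose by 3.06, while Ltbp1 and Ltbp3, which tether the latent complex to the matrix, had -2.34 and -1.60. The Ltbp3 call was lost without Control 1 (-1.35) or ERI-R 2 (-1.39).

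Inside the cell, talins and kindlins bind the beta chain tails and activate integrins. Of 21 such activators and adaptors, 5 were higher and 3 lower (median -0.45), and 3 in all were called without Control 2, 3 without Control 3 and 4 without Control 1, in fits that called 13.6%, 12.6% and 12.8% of all genes. Tln2, a talin, rose by 2.59. Kank4 had 6.401, 8.28 without Control 2, and its call was lost without Control 3 (6.09). Parvb, parvin beta, had -4.54, -3.85 without ERI-R 3 and -5.43 without ERI-R 1. Pxn, paxillin, had -1.11, a call ended by removing Control 1 (-0.86), Control 2 (-1.18), Control 3 (-1.23), or either ERI-R 1 (-1.12) or 2 (-0.90). The remaining ones, named after their values were seen, were Lims2 (2.65), Kank1 (2.03), Fermt1 (1.32) and Fermt2 (-0.90). Lims2 averaged 0.192 CPM in Control, under the level of 3 counts, and 1.26 CPM in ERI-R. The call of Fermt1 was close to the threshold (adjusted p = 0.0497, edgeR quasi-likelihood test).

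Among 20 focal adhesion kinases and signalling genes, 1 was higher and 3 lower (median -0.51), with 7 called in the 8 libraries with Lyz2 and 8 with the term, fits that called 22.7% and 31.2% of all genes. Efs, a scaffold of SRC signalling, had a log2 fold change of 7.19, from 10 counts over Control. It was 8.82 without Control 2 and 6.12 in the 8 libraries with Lyz2. Asap1 and the kinase Src had -2.997 and -1.57. Of 24 actin linkers, 3 were higher and 10 lower (median -1.26). Flnc, filamin C, had -5.64, -4.93 without ERI-R 3 and -6.58 without ERI-R 1, and Sorbs3, vinexin, -5.14. Trip6, a zyxin family protein, rose by 3.47 and by 2.57 without ERI-R 3, and Sorbs2 by 1.91.

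Of 19 other matrix receptors and integrin partners, 1 was higher and 6 lower (median -0.76). Cd44, the hyaluronan receptor, had a mean of 991 ± 208 CPM in Control and of 193 ± 101 CPM in ERI-R (SD over 3 libraries), a fitted value of -2.36. Lrp1, an endocytic receptor of matrix proteins, had -4.58, with -5.33 without ERI-R 1 and -3.81 in the 8 libraries with Lyz2. Sdc1, the epithelial syndecan, had 1.44, a call ended by removing Control 2 (1.45), Control 3 (1.22), ERI-R 2 (1.41) or ERI-R 3 (1.37).

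Markers of other cells were tested as lists beside these. None of 16 macrophage, 4 endothelial, 2 platelet or 5 fibroblast markers tested was called in ERI-R against Control, where 19.2% of all genes were. Each group mixes libraries with and without Lyz2, and standard errors over the macrophage markers ran from 1.08 (Cd14) to 2.94 (Lyz2). Those of Pf4 and Col1a2 were 2.23 and 2.01, and those of Itga2b and Pdgfra 0.50 and 0.55. With most errors this wide, the lack of calls does not show equal levels. Of 6 mammary epithelial markers, 4 were called higher, Krt14, Krt5, Epcam and Cdh1, and 0 lower, where 9.51% and 9.69% of all genes were. The other markers, Krt8 and Krt18, lay lower without a call, at -0.79 and -1.19 (adjusted p = 0.505 and 0.299, edgeR quasi-likelihood test). A fall of 1 of the 6 was called with Lyz2 as a term, in the 8 libraries with Lyz2 and without ERI-R 3. Those fits called 31.2%, 22.7% and 19.3% of all genes. The fitted value of Krt14 was 7.29, and it was 6.30 with ERI-R 3 left out and 8.29 with Control 2 left out. Krt5 had 2 counts over Control, a CPM ratio of 113 (95% counting interval 31.0 to 943). Pgr (5.90) was no longer called after removal of Control 1 (5.43), Control 2 (9.05), Control 3 (5.38), ERI-R 1 (5.44), ERI-R 2 (5.90) or PAC-R 2 (5.88).

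**Figure D5:**
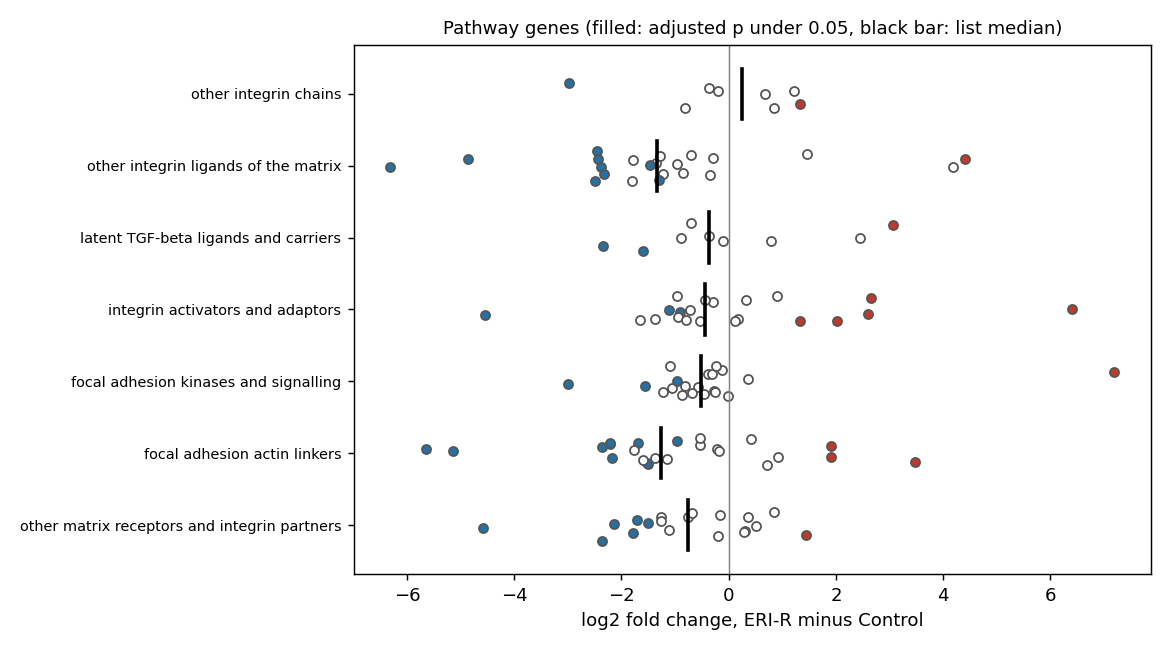
Log2 fold change in ERI-R against Control of each tested gene of 7 pathway lists, 1 point per gene; filled points have an adjusted p under 0.05 (red higher, blue lower) and black bars are list medians. Medians lie between -1.33 (other matrix ligands) and 0.24 (other integrin chains), and each list holds called genes in both directions.

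The genes whose log2 CPM followed a member most closely were found by Pearson's r over the 12 libraries, which share the separation of ERI-R from the rest, and are given as a description. Fn1 was followed by Lrp1 (r = 0.995), Dock5 (0.992) and Lamb1 (0.990). Over the 9 libraries without ERI-R these values were 0.955, 0.940 and 0.787. Itgb1 was followed by Fsd1l (0.995), Zfp229 (0.992) and Frmd4a (0.990), at 0.972, 0.982 and 0.956 over the 9. Itga3 was followed by Isyna1 (0.992), Lrrk1 (0.990) and Arhgef40 (0.988), at 0.935, 0.932 and 0.903 over the 9. Itga2 was followed by Tmprss11e (0.991), Fut8 (0.991) and Ppfibp1 (0.990), at 0.825, 0.817 and 0.871 over the 9. Itga5 was followed by St3gal1 (0.969), Hilpda (0.967) and Tfe3 (0.958). Itgb6 was followed by Notch1 (0.973), Macc1 (0.967) and Cdh1 (0.965), which over the 9 libraries without ERI-R fell to 0.822, 0.760 and 0.806. In these 9 libraries Itgb6 had between 0 and 5 counts, so its values there are open to counting error. Itgb3 had the lowest values over the 12 libraries, with Dlx1 (0.921), Phka2 (0.920) and Phf21b (0.911), at 0.764, 0.725 and 0.904 over the 9.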

How the data were processed

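Polyadenylated RNA of 12 libraries was sequenced as paired ends of 76 bases from 200 ng of RNA. Per the submitters' processing notes, the tools were STAR 2.7.2b, RSEM 1.3.2, cutadapt 2.4 and bcl2fastq 2.20.0.422, and the build was GRCm38. Not given in the sources used here were the annotation and whether strand was used in counting. Reads of a gene and an antisense partner therefore cannot be told apart. The files the authors deposited give, per the file headers, the expected count that RSEM estimated, the TPM and the effective length of each gene.

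Expected counts were rounded, which changed 15.3% of values above 0, filtered with filterByExpr and given TMM factors. Genes such as Itgb6, Efs, Kank4, Lims2 and Krt5 passed this filter through ERI-R alone, so they could only be called higher there. One edgeR 4.0.16 quasi-likelihood fit (R 4.3.3) took in all 12 libraries, 1 mean for each group, and 6 comparisons were made. CPM uses the same scaling, while the floors of 3 counts use the library totals alone. Floors and intervals cover counting error only. Positions come from GENCODE M21. The fit was also run on simulated counts with less spread between libraries than these data have. That run cannot show how the fit behaves at the spread found here.

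The 10 genes and the lists were chosen with earlier results of these data known. List genes were named by a rule: in each list, at most 2 rises and 2 falls, those of largest log2 fold change in a line against Control, taken from called genes whose libraries did not overlap and whose higher group averaged 5 CPM or more. For each called member the 3 genes of highest r were named, leaving out predicted genes. Of 204 list entries 203 matched a symbol. Alternatives were other scalings and filters, DESeq2 1.42.0, the replicate number as a block, Lyz2 above 100 CPM as a term, the 8 libraries with it, and leaving out each library. The same alternatives for the pathway lists were added after seeing the data.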

Additional observations from a re-analysis of the deposited data

Results flagged for a closer look

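Itga3, Itgb3 and Itgb5 are listed because, under the same contrast, both libraries with Lyz2 of one line lay on one side of both such libraries of the other line, while the pair of libraries without Lyz2 differed the opposite way. The CPM ratio of Itga3 in VIN-R over Control was 0.895 in the libraries with Lyz2 above 100 CPM and 1.34 in those without Lyz2. The ratio of Itgb5 in PAC-R over Control was 0.830 with Lyz2 and 1.62 without, and that of Itgb3 in PAC-R over VIN-R was 1.85 with and 0.826 without. Ratios of means on opposite sides of equality were also found where the libraries with Lyz2 overlapped, among them Itga2 in PAC-R over Control (1.85 with, 0.444 without) and Itga1 in the same comparison (1.21 with, 0.453 without). Each group holds 1 library without Lyz2, the differences were not tested, and none of these genes was called in these comparisons.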

How the results depend on the processing

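The sign of every member was the same in all 600 recomputed values of the 3 ERI-R comparisons, of which 531 also kept their side of the threshold, 39 lost a call and 30 gained one. The number of members called in ERI-R against Control was 4 without Control 2 and 4 without Control 3, over a range of 4 to 7 with 1 library left out. In ERI-R against PAC-R it was 10 with Lyz2 as a term, against 6. The replicate numbers went with shared deviations in some pairs of libraries and not in others. Same-numbered libraries of different groups had correlations of their deviations between -0.86 and 0.92 (median 0.454, 18 pairs). Differently numbered ones had values between -0.91 and 0.92 (median 0.00456, 36 pairs). Replicate 3 of each derivative, but replicate 1 of Control, is the library without Lyz2. With the replicate number as a block 7, 7 and 7 members were called in the 3 ERI-R comparisons (edgeR). Against Control this lost the call of Itgb3 (log2 value 1.4996, adjusted p = 0.0623) and gained that of Itgb5 (-1.53, adjusted p = 0.0276), and against PAC-R it gained Itgb5 (-1.5004, adjusted p = 0.0286). It called 2666 genes in ERI-R against Control. DESeq2 called 3581 genes there, against 2732. With the Lyz2 term 4445, 4176 and 4227 genes were called in ERI-R against Control, PAC-R and VIN-R, against 2732, 2667 and 2744. That term called 3 genes in PAC-R and 3 in VIN-R against Control, where leaving out ERI-R 3 called 2 and 6. The median of all genes moved by 0.14 and 0.12 on the log2 scale with total counts alone (ERI-R against PAC-R and VIN-R), by 0.10 to 0.13 in the 8 libraries with Lyz2 and by 0.19 to 0.20 without ERI-R 3. In the comparisons among Control, PAC-R and VIN-R no member was called under any alternative, and 36 of 600 values changed sign; the cause was not tested. With total counts alone Itga1 in PAC-R against Control was -0.041. With the block Itga1 was -0.16 and Itgb5 -0.025 in PAC-R against Control, and Itga3 -0.011 in VIN-R against Control. With the Lyz2 term Itga1 in PAC-R against Control was -0.11. In the 8 libraries with Lyz2, Itgb5 was -0.28 in PAC-R against Control, Itga3 -0.17 in VIN-R against Control, and Itga2 0.19, Itgav 0.0115, Itgb1 0.11 and Fn1 0.051 in PAC-R against VIN-R. The other values that changed sign did so with 1 library left out. In PAC-R against Control the ranges were Itga1 -0.54 to 0.44, Itga2 -0.40 to 0.88, Itgav -0.67 to 0.0794, Itgb3 -0.17 to 0.34, Itgb5 -0.48 to 0.50. In VIN-R against Control the ranges were Itga1 -0.34 to 0.0303, Itga3 -0.40 to 0.36, Itgav -0.67 to 0.0796, Itgb5 -0.50 to 0.0171. In PAC-R against VIN-R the ranges were Itga1 -0.38 to 0.60, Itga2 -1.02 to 0.26, Itga3 -0.96 to 0.0532, Itgav -0.45 to 0.33, Itgb1 -0.22 to 0.21, Itgb5 -0.28 to 0.72, Fn1 -0.20 to 0.17. All 40 group means of TPM recomputed from counts and effective lengths moved by less than 1 SD. Depth limits Itgb6, which had 10 counts over Control, 6 over PAC-R and 3 over VIN-R.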
